A study of Mus musculus with 2 samples.

Results

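Adhesion G protein-coupled receptors are cell surface proteins with a long extracellular part joined to a bundle of transmembrane helices. Most are cut in a membrane-near GAIN domain at the GPCR proteolysis site (GPS), and the new end of the transmembrane part can act as a tethered agonist once the extracellular part is moved or removed. They read contacts with matrix and with neighbouring cells and pass them on through G proteins. In skeletal tissue Adgrg6 (GPR126) is the best known member, from work on cartilage and the spine. The 30 genes described here are the rows of the deposited table, out of 22156, whose symbol is *Adgr* with a letter and a number or *Celsr1*, *Celsr2* or *Celsr3*. The symbol alone decided which genes are members, but the family itself was chosen by the counts of the same libraries, in which *Adgrd1* had been seen to stand out, so the values below are a description and no test was run on them.

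The data are RNA sequencing of primary chondrocytes isolated from cartilage (rib cartilage in the labels) of newborn mice on the C57BL/6 J background and kept as a monolayer with serum. There was 1 control library and 1 *Myl3*-KO library. *Myl3*-KO mice carry Col2a1-Cre and floxed *Myl3* alleles, so the deletion is directed at cells in which the *Col2a1* promoter drives Cre. The methods describe controls as *Myl3* flox/flox littermates, whereas the labels give WT, and neither states whether animals were pooled. The question of the comparison was which genes differ when *Myl3*, a myosin light chain gene, is lost in chondrocytes.

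Library totals were 17612434.91 expected counts (estimated reads per gene, not normalized) in the control against 13477976.98 in *Myl3*-KO. A count of 3 was used as a floor, which equals a level of 0.170 CPM (counts scaled to a common library total) in the control against 0.223 in *Myl3*-KO. *Myl3* had 0 counts in both libraries and could not check the labels. Of 13 chondrocyte markers in the table, 5 were at 0 in both libraries, *Acan*, *Matn1*, *Matn3*, *Hapln1* and *Cnmd*, and *Col2a1* had 30 and 27 counts, whereas the fibrillar collagen gene *Col1a2* had 211652 and 189213. The 13 markers summed to 75.5 CPM in the control against 76.3 in *Myl3*-KO. *Sox9*, the transcription factor gene of the cartilage lineage, was counted at 866 and 480, *Col11a2* at 293 and 395, and *Col11a1* at 121 and 99. In this order their log2 ratios (*Myl3*-KO over control, counts over library total) were -0.47, 0.82 and 0.10. The like sums thus held single markers that went in opposite directions. The markers of the labelled cell type were thus partly present, while the major cartilage matrix genes were at 0 or low. With 1 library per genotype no difference has a replicate check, and every interval below covers counting error only. In such bulk samples, fewer cells of a type and less RNA per cell cannot be told apart.

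Of the 30 genes, 9 had 0 counts in both libraries, 7 had 1 to 9 counts over both, and 14 had at least 10. Over all 22156 genes, 32.8% were at 0 in both libraries, against 30.0% of the family, and 56.1% had at least 10 counts, against 46.7%. The 9 at 0 were *Adgrb1* and *Adgrb3* of the brain angiogenesis inhibitor group, *Adgre1*, *Adgrf1*, *Adgrf3*, *Adgrg2*, *Adgrg4*, *Adgrg7* and *Celsr1*. *Adgre1* encodes F4/80, the standard surface marker of mouse macrophages. A count of 0 lies under the floor, which equals 0.170 CPM in the control against 0.223 CPM in *Myl3*-KO, and does not show that a gene is silent. *Adgre1* at 0 stood beside 0 counts of the macrophage and leukocyte genes *Aif1*, *Tyrobp*, *Itgam* and *C1qa*, 4 of the 10 on that list, whose sum was 5.23 CPM in the control against 4.90 in *Myl3*-KO. Counted from the same list were *Cd14* at 50 and 30, *Cd68* at 18 and 16, and *Csf1r* at 14.04 and 12, with *Lyz2*, *Fcgr1* and *Ptprc* at 6 or fewer in each library.

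The 7 genes with 1 to 9 counts over both libraries were *Adgre4*, *Adgrf2*, *Adgrf5*, *Adgrg3*, *Adgrl3*, *Adgrv1* and *Celsr3*. *Adgre4*, a myeloid gene, and *Celsr3* had 3 counts in each library, and *Adgrl3* and *Adgrg3* had 2 in each. *Adgrf2* and *Adgrf5* had 1 in the control against 3 in *Myl3*-KO, and *Adgrv1*, an Usher syndrome gene of the inner ear, had 4 and 1. No ratio is given for these genes, whose counts lie at or near the floor.

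**Figure D1:**
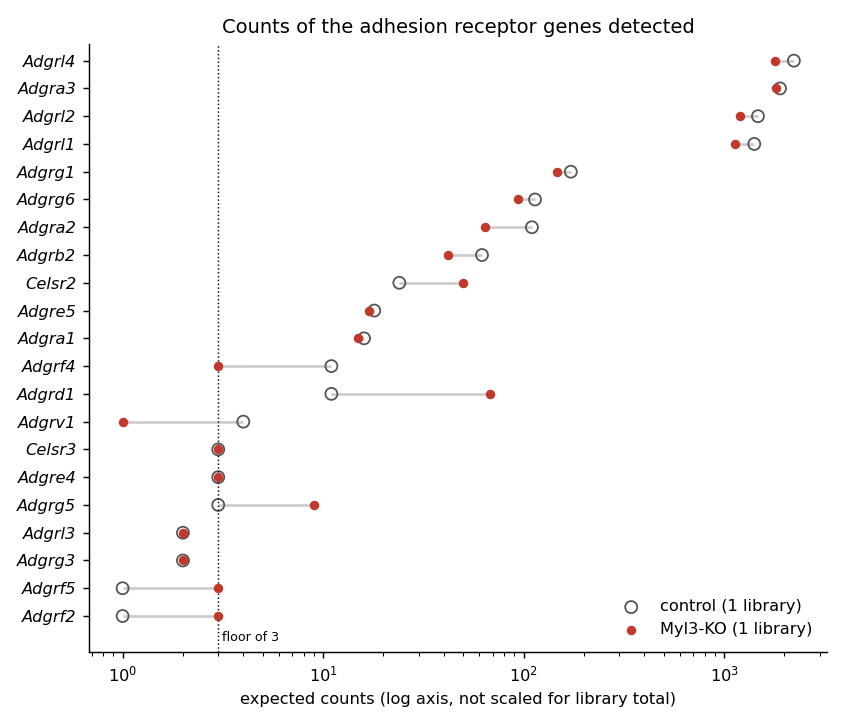
Expected counts (log axis, not scaled for the library total) of the 21 members with at least 1 count, open circles for the control library and filled circles for *Myl3*-KO, and with the floor of 3 counts as a dotted line. *Adgrl4*, *Adgra3*, *Adgrl2* and *Adgrl1* lie far above the other members in both libraries, and *Adgrd1* is the member with the widest gap in the direction of *Myl3*-KO, at 11 and 68.

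The family as a whole was carried by a few genes. Its summed count was 7573.94 in the control (exact 95% Poisson interval 7404 to 7747) and 6452.96 in *Myl3*-KO (6297 to 6612), or 430.0 and 478.8 CPM. For the sum, *Myl3*-KO over control was 0.15 on the log2 scale (95% interval 0.11 to 0.20). *Adgrl4*, *Adgra3*, *Adgrl2* and *Adgrl1* together held 92.6% of the family's counts in the control against 91.8% in the *Myl3*-KO library. The other 26 genes summed to 557 and 526 counts, a log2 ratio of 0.30 (95% interval 0.13 to 0.48). The *Adgrl* group alone took 67.6% of the family's counts in the control against 63.8% in the *Myl3*-KO library, and the *Adgra* group 26.7% and 29.4%.

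Levels between genes were compared by the deposited FPKM values, which divide reads by length and library. *Adgrl4*, known from blood vessel endothelium, was highest at 38.99 FPKM in the control against 37.40 in *Myl3*-KO. *Adgra3* followed at 24.08 and 30.06, *Adgrl2* at 21.09 and 23.26, and *Adgrl1* at 10.69 and 11.28. These 4 genes kept this order in both libraries. Among all genes, 2304 had a higher FPKM than *Adgrl4* in the control, and 6476 a higher one than *Adgrl1*.

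Below them lay a step to *Adgrg1* at 3.09 and 3.05 FPKM, and another to a group near 1 FPKM. In the control *Adgra2* (1.14, exact 95% Poisson interval 0.94 to 1.37) and *Adgrg6* (1.1, 0.91 to 1.32) overlapped in their counting intervals, so their order is not resolved. *Adgrb2* was at 0.70 and 0.65 FPKM. The remaining members with at least 10 counts, *Adgrf4*, *Adgre5*, *Celsr2*, *Adgra1*, *Adgrd1* and *Adgrg5*, lay between 0.07 and 0.56 FPKM in the control. *Adgrd1* was 14th of the 30 by FPKM in the control, at 0.14, and 7th in *Myl3*-KO, at 0.98. Its counting intervals (0.07 to 0.25 and 0.76 to 1.24) overlapped those of members ranked near it, so these ranks are not resolved either.

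**Figure D2:**
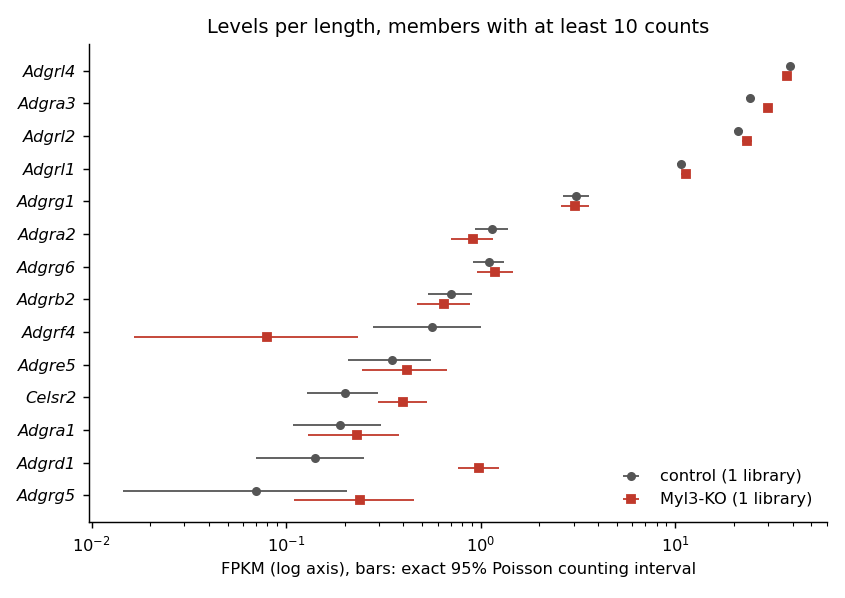
FPKM (log axis) of the 14 members with at least 10 counts over both libraries, circles for the control library and squares for *Myl3*-KO, with bars for the exact 95% Poisson counting interval. The levels span from 0.07 FPKM (*Adgrg5*, control) to 38.99 (*Adgrl4*, control). The control and knockout intervals lie apart for *Adgrd1*, *Adgra3* and *Adgrf4*. For *Adgrf4* the length behind the FPKM also differed, and the interval of its ratio by counts included equality.

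For the difference between the libraries, counts were divided by the library total, counts under 3 were raised to 3, and a gene with at least 10 counts over both was said to be past the limit at a log2 ratio of at least 1 in size. Past it on the higher side in *Myl3*-KO were 3 of the 14 genes, *Adgrd1*, *Adgrg5* and *Celsr2*, beside 2.16% of the 12431 genes of the table with at least 10 counts. On the lower side was 1 of 14, *Adgrf4*, beside 1.19%. Nothing is read from these shares, because the family was chosen with this contrast in view. The median log2 ratio of the 14 was 0.13, against 0.02 over all 12431 genes. The ratio was above 0 for 11 of the 14 and below 0 for 3, beside 52.7% above 0 of all genes with at least 10 counts. Nothing is read from the median or from these signs either, for the same reason.

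Another reading is whether the 95% Clopper-Pearson counting interval of the ratio lay wholly on one side of equality. It lay wholly above for 3 of the 14, *Adgrd1*, *Celsr2* and *Adgra3*, beside 22.2% of all genes with at least 10 counts, and wholly below for 0, beside 20.1%. *Adgrg5* and *Adgrf4* were past the limit of the ratio but had intervals that included equality.

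**Figure D3:**
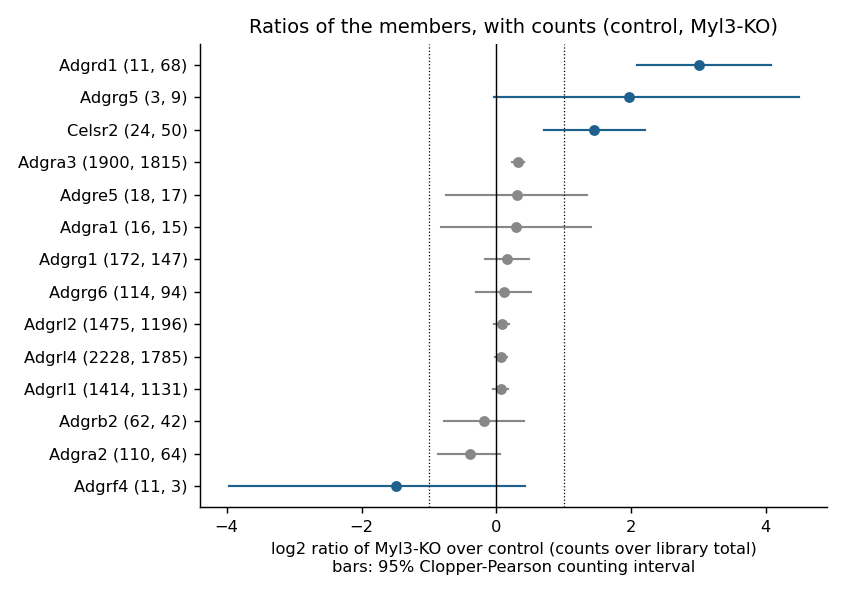
Log2 ratio, *Myl3*-KO over control (counts over library total) of the 14 members with at least 10 counts, with 95% Clopper-Pearson counting intervals as bars and the counts in the control and *Myl3*-KO in brackets. Dotted lines mark a log2 ratio of 1 in either direction, past which lie *Adgrd1*, *Adgrg5* and *Celsr2* on the higher side and *Adgrf4* on the lower.

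*Adgrd1* (ENSMUSG00000044017) encodes GPR133, a receptor that couples to Gs and raises cyclic AMP. The gene lies on chromosome 5 of GRCm38 from 129096750 to 129204599, on the plus strand, is protein coding, and shares no exon bases with another counted gene. It had 11 counts in the control against 68 in *Myl3*-KO, or 0.625 and 5.05 CPM. It was 8.08-fold higher in *Myl3*-KO, with 3.01 as its log2 ratio (95% interval 2.08 to 4.08). By its ratio it was 4th of the 12431 genes with at least 10 counts and 2nd of the 11123 with at least 50. By FPKM, 0.14 and 0.98, the log2 ratio was smaller, 2.81.

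The gap between the count ratio and the FPKM ratio of *Adgrd1* came from the length by which the authors divided, which can be worked back from count, FPKM and library total. That length lay between 4307 and 4626 bases in the control, within the rounding of the FPKM value, and between 5122 and 5175 bases in *Myl3*-KO. GENCODE M21 lists *Adgrd1* transcripts of 3665, 4141 and 5163 bases. The length in *Myl3*-KO thus included that of the longest transcript, and the one in the control lay between the longest and the next. With 11 counts in the control, how reads were shared among transcripts there rests on few reads.

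The proteins PTK7 and PLXDC2 have been described as ligands of GPR133. *Ptk7* had 930 counts in the control against 818 in *Myl3*-KO, with 0.20 as its log2 ratio (95% interval 0.06 to 0.34), and *Plxdc2* had 0 in both. *Gnas*, which encodes the Gs alpha subunit, had a log2 ratio of 0.02 (95% interval -0.02 to 0.05) at 472.9 and 479.6 FPKM. Marker lists of other cells differed between the libraries as well. The summed level of 9 skeletal muscle markers went from 4.54 to 21.7 CPM, of which *Cdh15* alone made up 73 counts in the control against 290 in *Myl3*-KO, while *Myod1*, *Myog*, *Myf5*, *Pax7* and *Des* were at 0 in both. Of 9 fibroblast markers, *Thy1* was at 0, and the sum was 18526 CPM in the control against 22016 in *Myl3*-KO. *Col1a2* went from 12017 to 14039 CPM and *Fn1* from 3065 to 4485. Log2 ratios were -1.64 for *Dcn*, -1.36 for *Lum* and -0.08 for *Postn*. They were 0.61 for *Pdgfra*, 0.55 for *Fn1*, 0.22 for *Col1a2*, 0.15 for *Col1a1* and 0.01 for *Col3a1*. The part of such cells in the *Adgrd1* counts was not tested.

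*Celsr2* (ENSMUSG00000068740, chromosome 3 from 108390851 to 108415552, minus strand) encodes a cadherin with a receptor domain that acts in planar cell polarity, the alignment of cells within a sheet. It had 24 counts in the control against 50 in *Myl3*-KO, and was 2.72-fold higher in *Myl3*-KO, with 1.44 as its log2 ratio (95% interval 0.72 to 2.21). By FPKM it went from 0.20 to 0.40, and the length behind the value was 6647 to 6988 bases in the control and 9160 to 9392 in *Myl3*-KO. Its transcripts in GENCODE M21 run from 467 to 10598 bases. Both related genes were at or under the floor, *Celsr1* at 0 counts in both libraries and *Celsr3* at 3 in each.

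Proteins that work with the Celsr receptors in planar cell polarity were measured through a list of 15 genes, all in the table. Of the 14 with at least 10 counts, 1 was past the limit on the higher side, *Prickle3*, beside 2.16% of all genes, and 0 on the lower side, beside 1.19%. *Prickle3* had 5.02 and 9.03 counts and an interval that included equality (-0.50 to 3.16). The median log2 ratio of the 14 was 0.18, against 0.02 over all genes. The frizzled receptor gene *Fzd6* had 614 counts in each library, a log2 ratio of 0.39 (95% interval 0.22 to 0.55), and *Dvl3*, which encodes a dishevelled protein, had one of 0.34 (0.20 to 0.49). *Vangl2*, a core polarity gene, stood at -0.29 (-0.67 to 0.09) and *Fjx1* at -0.38 (-0.79 to 0.03). The well counted *Fzd3*, *Vangl1* and *Fat4* had log2 ratios of 0.08, 0.05 and 0.01, with intervals that included equality. Besides *Fzd6* and *Dvl3*, intervals wholly above equality were those of *Dvl1* (0.25, 0.05 to 0.45) and *Dvl2* (0.17, 0.04 to 0.29). *Ptk7* (0.20, 0.06 to 0.34) and *Prickle2* (0.41, 0.01 to 0.82) had such intervals too. No gene of the list had an interval wholly below equality.

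*Adgrg5* (ENSMUSG00000061577), known from immune cells, lies on chromosome 8 from 94923694 to 94943280, upstream on the same strand of *Adgrg1* (94974751 to 95014217) and *Adgrg3* (95017692 to 95045250). It had 3 counts in the control against 9 in *Myl3*-KO, a ratio of 3.92-fold and a log2 ratio of 1.97 whose 95% interval reached from -0.03 to 4.49. *Adgrg3*, an immune cell gene as well, had 2 counts in each library. *Adgrg1*, between them, had 172 and 147, a log2 ratio of 0.16 (95% interval -0.17 to 0.49). The 3 neighbours thus differed in level, and *Adgrg1* alone of them was well counted.

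*Adgrf4* (ENSMUSG00000023918, chromosome 17 from 42656891 to 42692284, minus strand) had 11 counts in the control against 3 in *Myl3*-KO. Its log2 ratio was -1.49 (95% interval -3.97 to 0.43), 2.81-fold lower in *Myl3*-KO. By FPKM, 0.56 and 0.08, the log2 ratio was -2.81. The length behind the FPKM was 1105 to 1125 bases in the control and 2619 to 2968 in *Myl3*-KO, while the transcripts of GENCODE M21 are 390, 2751, 2983 and 3060 bases long. *Adgrf2*, its neighbour on the same chromosome from 42708936 to 42742179, had 1 and 3 counts.

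RefSeq promoter windows (build GRCm38.p6, 250 bases before to 50 after the start) were at hand for 22 of the 30 genes, 26 windows in all. *Adgra2*, *Adgrb1*, *Adgrd1*, *Adgre1*, *Adgre5*, *Adgrf2*, *Adgrf3* and *Celsr1* had no entry. Shown are the windows of the other genes past the limit and of the most abundant member, 5′ to 3′ on the strand of the gene, with every CpG dinucleotide in capitals. The windows lie at chr3:108415530-108415829 (*Celsr2*, minus), chr8:94923444-94923743 (*Adgrg5*, plus), chr17:42692235-42692534 (*Adgrf4*, minus) and chr3:151437632-151437931 (*Adgrl4*, plus).
Celsr2: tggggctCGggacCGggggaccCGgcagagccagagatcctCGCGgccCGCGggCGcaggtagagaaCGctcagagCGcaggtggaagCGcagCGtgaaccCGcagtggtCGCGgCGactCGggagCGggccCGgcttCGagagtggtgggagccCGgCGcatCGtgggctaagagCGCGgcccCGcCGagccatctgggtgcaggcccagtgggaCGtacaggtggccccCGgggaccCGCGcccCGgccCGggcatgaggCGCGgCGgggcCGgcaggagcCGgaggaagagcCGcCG
Adgrg5: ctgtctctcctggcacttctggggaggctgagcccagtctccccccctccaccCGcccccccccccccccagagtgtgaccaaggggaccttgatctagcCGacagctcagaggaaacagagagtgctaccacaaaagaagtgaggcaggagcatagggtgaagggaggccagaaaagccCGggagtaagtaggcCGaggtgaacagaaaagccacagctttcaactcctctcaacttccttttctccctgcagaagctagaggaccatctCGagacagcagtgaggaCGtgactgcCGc
Adgrf4: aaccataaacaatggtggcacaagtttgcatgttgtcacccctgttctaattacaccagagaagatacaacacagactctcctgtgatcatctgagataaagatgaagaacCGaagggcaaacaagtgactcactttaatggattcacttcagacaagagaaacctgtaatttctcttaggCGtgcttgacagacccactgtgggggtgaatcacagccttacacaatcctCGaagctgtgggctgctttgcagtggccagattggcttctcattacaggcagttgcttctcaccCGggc
Adgrl4: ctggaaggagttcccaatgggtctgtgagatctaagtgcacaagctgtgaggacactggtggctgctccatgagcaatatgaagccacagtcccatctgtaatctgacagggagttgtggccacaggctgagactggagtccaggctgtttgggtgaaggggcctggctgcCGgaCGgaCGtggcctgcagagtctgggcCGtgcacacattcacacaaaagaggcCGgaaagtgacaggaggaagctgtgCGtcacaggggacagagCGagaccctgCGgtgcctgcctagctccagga

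*Celsr2* had 40 CpG dinucleotides in its window, a ratio of observed to expected CpG of 0.94. *Adgrg5* had 7 (ratio 0.27), *Adgrf4* 4 (0.25) and *Adgrl4* 8 (0.32). The median ratio over all 32851 windows was 0.38. A ratio over 0.6, the usual mark of a CpG-rich promoter, was found for 6 of the 11 genes with at least 10 counts and a window, and for 4 of the 11 under 10 counts, beside 35.8% of all windows, where the highest window of a gene was taken. The 4 most abundant members lay on both sides of this value, *Adgra3* at 0.89, *Adgrl1* at 0.77, *Adgrl2* at 0.42 and *Adgrl4* at 0.32. The only window of *Adgrl2*, a minus strand gene, ends at 148954885, inside the gene, whose 5′ end in GENCODE M21 is at 148990555.

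Because the study follows Notch signaling, the windows were searched on both strands for TGGGAA, the core word of the Notch factor RBPJ, and for words bound by factors of the Hes class, CACGTG together with the related CACGAG and the related CACGCG. The RBPJ word was in 5 of the 26 windows, of *Adgra1*, *Adgrb3*, *Adgrl4* and both windows of *Adgrf5*, beside 25.6% of all windows. The Hes class words were in 2, of *Adgre4* and *Adgrg2*, beside 20.3%. The windows of *Celsr2*, *Adgrg5* and *Adgrf4* held none of these words.

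**Figure D4:**
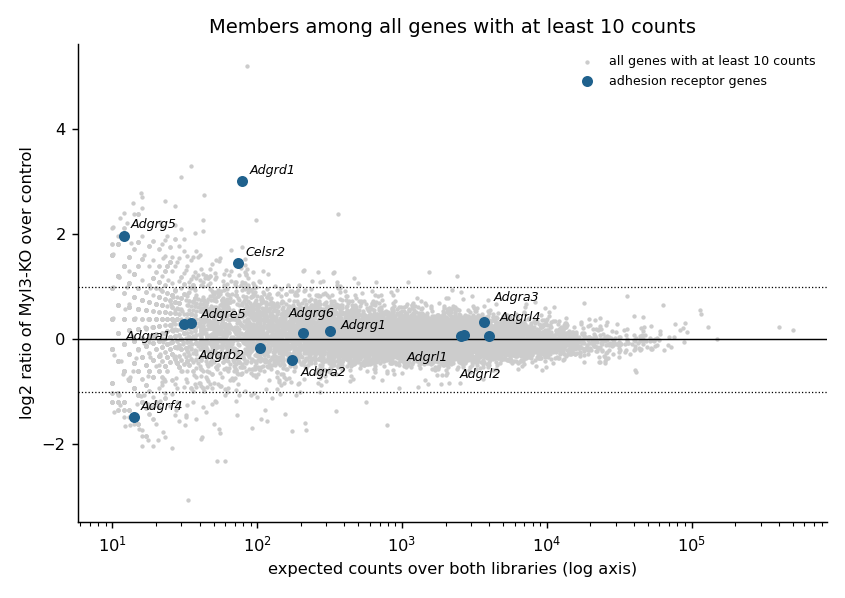
Log2 ratio of *Myl3*-KO over control against the expected counts over both libraries (log axis) for the 12431 genes with at least 10 counts (grey) and the 14 members among them (blue). *Adgrd1*, at 3.01, is 2nd among the 11123 genes with at least 50 counts, *Adgrg5* and *Adgrf4* lie in the wide spread at the left, and the 4 most abundant members lie between 0.06 and 0.32.

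The latrophilins, *Adgrl1*, *Adgrl2* and *Adgrl3*, bind teneurins and FLRT proteins on facing cells, and *Adgrl4* is an orphan relative. *Adgrl1* had 1413.94 counts in the control against 1130.96 in *Myl3*-KO, with 0.06 as its log2 ratio (95% interval -0.05 to 0.18). *Adgrl2* had 1475 and 1196, a log2 ratio of 0.08 (-0.03 to 0.19). *Adgrl4* had 2228 and 1785, a log2 ratio of 0.07 (-0.02 to 0.16). All 3 intervals included equality and excluded a difference of the size seen for *Adgrd1*. *Adgrl1* is the only member whose counts were not whole numbers, and its exons overlap those of *Gm10644* on the opposite strand.

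The level of *Adgrl4*, 126.5 and 132.4 CPM, stood beside few counts of endothelial markers. Of 8 such genes *Cdh5*, *Tie1* and *Emcn* were at 0 in both libraries and *Pecam1* had 5 counts in each. Their sum was 2.73 CPM in the control against 2.003 in *Myl3*-KO. *Egfl7* made up 40 of 48 counts in the control and 10 of 27 in *Myl3*-KO. By FPKM *Adgrl4* had a log2 ratio of -0.06, against 0.07 by counts.

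Among latrophilin ligands, the teneurin genes *Tenm4* (349 and 320 counts) and *Tenm3* (226 and 218) were measured, with log2 ratios of 0.26 (95% interval 0.04 to 0.48) and 0.33 (0.06 to 0.61), whereas *Tenm1* and *Tenm2* were at 0. The FLRT genes were weakly counted, *Flrt3* at 23 and 29, *Flrt1* at 22 and 20, and *Flrt2* at 6 and 4. *Unc5b*, which encodes a receptor that also binds FLRT proteins, had 180 and 191 counts and a log2 ratio of 0.47 (0.17 to 0.77). None of these was past the limit.

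The *Adgra* genes differed among themselves. *Adgra3* (GPR125) had 1900 counts in the control against 1815 in *Myl3*-KO, which after division by the totals was 1.25-fold higher in *Myl3*-KO, with 0.32 as its log2 ratio (95% interval 0.23 to 0.41). *Adgra2* (GPR124), a partner of RECK in the WNT7 signal to brain vessels, had 110 and 64, a log2 ratio of -0.40 (-0.86 to 0.06). *Adgra1* had 16 and 15 (0.29, -0.83 to 1.40). The intervals of *Adgra3* and *Adgra2* did not overlap. *Reck* was at 125 and 119 counts (0.32, -0.06 to 0.69), and *Wnt7a* and *Wnt7b* were at 0 in both libraries. Exons of *Adgra2* overlap those of *Brf2* on the opposite strand, and the strand setting of the counting is not given in the sources used here.

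*Adgrg1* (GPR56) binds type III collagen and transglutaminase and signals through the G12 and G13 proteins. *Col3a1* was at 448.5 and 438.6 FPKM with a log2 ratio by counts of 0.01 (95% interval -0.01 to 0.04). *Tgm2* had 1013 counts in the control against 1159.99 in *Myl3*-KO, with 0.58 as its log2 ratio (0.46 to 0.70). *Gna12* and *Gna13* had log2 ratios of 0.01 and 0.03. Ligand genes of *Adgrg1* were thus abundant in both libraries, and of these genes *Tgm2* had the largest ratio.

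*Adgrg6* (ENSMUSG00000039116, chromosome 10 from 14402583 to 14545659, minus strand), needed for myelination by Schwann cells as well as in the skeleton, had 114 counts in the control against 94 in *Myl3*-KO. Its log2 ratio was 0.11 (95% interval -0.30 to 0.51). Its described ligands are type IV collagen, laminin with the alpha 2 chain and the prion protein. *Prnp* had 2510 and 2112 counts, a log2 ratio of 0.14 (0.05 to 0.22). *Lama2* had 15 and 9 and *Col4a1* had 1 and 2. *Col4a2* had 5 counts in the control against 22 in *Myl3*-KO, with 2.52 as its log2 ratio (1.09 to 4.28), the largest of the partner genes with at least 10 counts.

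*Adgre5* (CD97), a receptor of leukocytes and other cells, had 18 and 17 counts, a log2 ratio of 0.30 (95% interval -0.74 to 1.34), and its exons overlap those of *Ddx39* on the opposite strand. The genes of its ligands CD55 and THY1, *Cd55* and *Thy1*, were at 0 in both libraries. *Adgrb2* had 62 and 42 counts, a log2 ratio of -0.18 (-0.78 to 0.41), and was the only gene of its group with a count. *Elmo1*, *Elmo2* and *Dock1* encode proteins that act below BAI1, the product of *Adgrb1*, in the uptake of dead cells. *Elmo1* had 31 and 20 counts and a log2 ratio of -0.25 (-1.13 to 0.61). *Elmo2* and *Dock1* had log2 ratios of -0.04 and 0.07.

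Over the whole list of 45 ligands and partners, 14 were at 0 in both libraries and 26 had at least 10 counts. Of the 26, 2 were past the limit on the higher side, *Col4a2* and *Pdzd7*, beside 2.16% of all genes with at least 10 counts, and 2 on the lower side, *Nrxn2* and *C1ql3*, beside 1.19%. The intervals of *Pdzd7*, *Nrxn2* and *C1ql3* included equality. The median log2 ratio of the 26 was 0.13, against 0.02 over all genes. Of 27 genes of G proteins and their effectors, 22 had at least 10 counts and 0 were past the limit in either direction, beside the same 2.16% and 1.19%, with a median of 0.12. *Adcy7* was at 0.64 (95% interval 0.48 to 0.81) and *Arrb1* at -0.56 (-0.83 to -0.29).

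**Figure D5:**
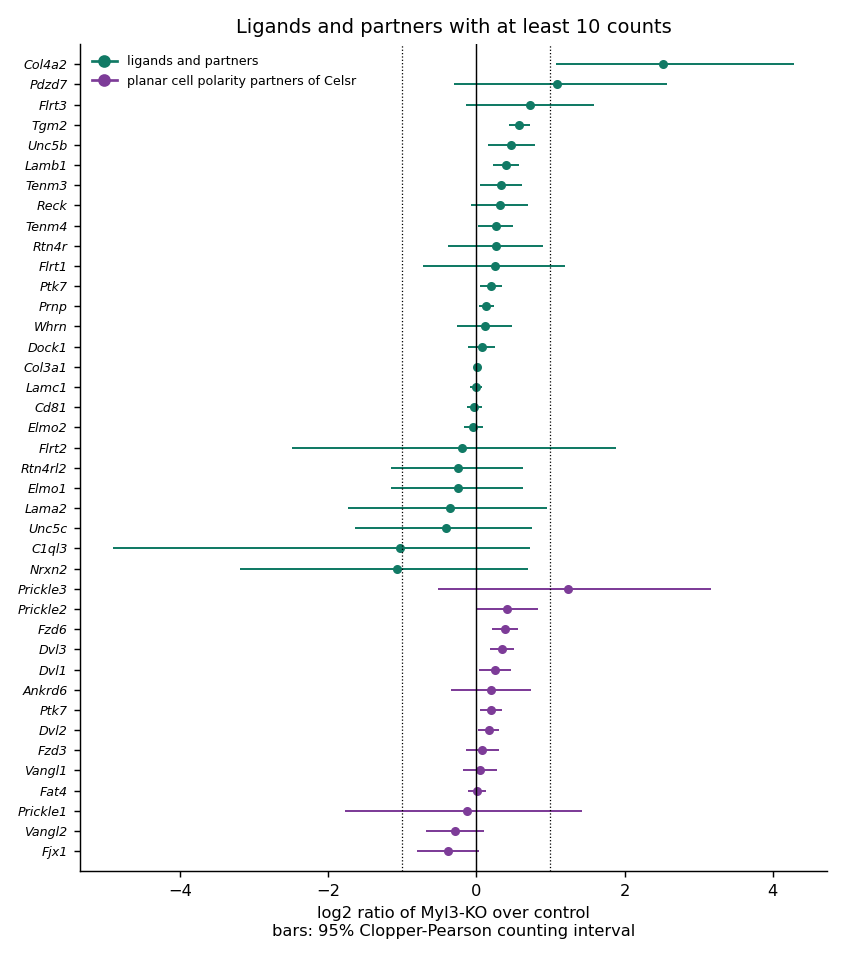
Log2 ratio of *Myl3*-KO over control of the 26 ligands and partners (green) and 14 planar cell polarity genes (purple) with at least 10 counts, with 95% Clopper-Pearson counting intervals; counts under 3, as for *C1ql3* in *Myl3*-KO, were raised to 3 for the point. *Col4a2* at 2.52 is the one gene past a log2 ratio of 1 whose interval does not reach equality.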

How the data were processed

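The authors deposited 1 table with an expected count and an FPKM value per gene for each library. The expected counts are estimated reads per gene without normalization, and the deposited FPKM values, written with 2 decimals, divide reads by length and library. Library preparation is given differently by the methods (oligo-dT beads, random primers) and by the labels (a SMARTER kit). The submitters' processing notes name GRCm38 and mm10. The aligner, counting tool and strand setting are not given in the sources used here. The column headed NC was read as the control because the other is headed KO.

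Members were found by symbol, and members and gene lists were chosen with earlier results of these data known. Named are all members with at least 10 counts over both libraries, those with 1 to 9 counts, those at 0, and the ligands or partners of named members. *Gnas*, *Fzd3*, *Fzd6*, *Dvl1*, *Dvl2*, *Dvl3*, *Vangl1*, *Vangl2*, *Fat4*, *Fjx1*, *Adcy7*, *Arrb1*, *Prickle2*, *Prickle3* and *Pkd1* were picked after their values were seen, as was the CpG count. Log2 ratios used counts over the library total with a floor of 3. Intervals are 95% Clopper-Pearson intervals of the rounded counts, and Poisson intervals for sums and levels. With 1 library per genotype, no test was run. The functions were tested on simulated data. Coordinates and transcript lengths are from GENCODE M21 (GRCm38). Protein features were not analysed here.

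Ratios and intervals were computed with scipy 1.17.1, pandas 2.3.3 and numpy 2.4.6 (Python 3.11.15) and drawn with matplotlib 3.10.9. R 4.3.3 was used with edgeR 4.0.16 (TMM factors) and DESeq2 1.42.0 (size factors) for the alternative scalings. Other alternatives were no filter, at least 10 counts in each library, at least 50 over both, 1 added count, the FPKM ratio with a pseudocount of 0.01, and another limit.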

Additional observations from a re-analysis of the deposited data

How the results depend on the processing

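No paired analysis was possible because each genotype has 1 library, and for the same reason no library could be left out. Of 92 ratios of single members under an alternative, 90 kept their sign, and the exceptions were *Adgrl4* and *Adgrg1* with the FPKM ratio. The count filters leave the ratio of a kept member unchanged, and TMM and DESeq2 scaling shift all ratios by the same amount. Only the added count and the FPKM ratio could change ratios gene by gene, so most of the 92 could hardly have changed sign. A limit of 2 on the log2 ratio left 1 member on the higher side, *Adgrd1*, and 0 on the lower, beside 0.249% and 0.0483% of all genes. Fewer genes pass a stricter filter. With at least 10 counts in each library, 2 members were past the limit on the higher side, *Adgrd1* and *Celsr2*, and 0 on the lower, beside 0.924% and 0.265%. With at least 50 counts over both, the same 2 were higher and 0 lower, beside 0.602% and 0.270%. Counting intervals wholly on one side of equality in place of the limit gave 0 members lower, beside 22.2% and 20.1% of all genes above and below. The FPKM ratio with its pseudocount of 0.01 put *Celsr2* inside the limit (0.97), whereas without the pseudocount its log2 ratio was 1, at the limit. By FPKM the sum of the family had a log2 ratio of 0.11. The ratio of *Adgrd1* ranged from 2.72 (FPKM with the pseudocount) to 3.01, and TMM and DESeq2 scaling lowered every ratio by about 0.02. The median of the members ranged from 0.10 to 0.30 over the alternatives, the latter with no filter, where genes at the floor in both libraries take the ratio of the library totals. At these depths the members with under 20 counts in each library, *Adgre5*, *Adgra1*, *Adgrf4* and *Adgrg5*, have an interval of more than 1 on the log2 scale to either side.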

Other observations

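The length that turns a count into an FPKM value differed between the libraries for many genes of the table. Of 10321 genes with at least 50 counts and at least 0.5 FPKM in each library, 1396 (13.5%) had lengths more than 5% apart. Of the 7 members among them, 2 did, *Adgrl4* and *Adgrg1*, both with a greater length in *Myl3*-KO. *Pkd1*, which encodes polycystin-1, another protein cut at a GPS, gave opposite directions, with 3165.63 and 2844.06 counts (log2 ratio 0.23, 95% interval 0.16 to 0.30) but 28.55 FPKM in the control against 18.3 in *Myl3*-KO. The other genes of that list, *Pkd1l1*, *Pkd1l2*, *Pkd1l3* and *Pkdrej*, had at most 2 counts in a library.

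Only 1 of the 30 family members, *Adgrb1*, is assigned to a pathway by the authors, and it had 0 counts in both libraries. A summary by those pathways therefore holds none of the 21 members with a count, *Adgrd1* included. The study's own list of its top up-regulated genes does name *Adgrd1*, as well as *Col4a2* and *Cdh15*.

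Of the remaining marker lists, 2 of 6 Schwann cell genes, *Sox10* and *Ngfr*, were at 0 in both libraries, with a sum of 4.20 CPM in the control against 6.08 in *Myl3*-KO. Osteoblast genes, 6 in all and none at 0 in both libraries, summed to 178.3 and 189.5 CPM. *Runx2* alone made up 167.6 and 181.3 CPM of this. *Sp7* had 137 and 98 counts, and *Alpl*, past the limit on the lower side, had 46 and 7. *Bglap*, *Ibsp* and *Dmp1* had at most 5 counts in a library. Of 5 adipocyte genes, 3 were at 0 in both, with sums of 0.341 and 0.223 CPM.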
